A study of Mus musculus with 4 samples.

Results

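Collagen and laminin genes were followed across the cell types of the mouse testis and between diets. A gene was included when its symbol was Col followed by a number, the letter a and a number, or Lama, Lamb or Lamc followed by a number, and when it had at least 20 unique molecular identifiers (UMIs, each marking 1 captured RNA molecule) over the 4 deposited matrices. Of 55450 annotated genes, 55 had such a symbol and 52 reached the limit, 41 collagens and 11 laminins. Col13a1 with 20 UMIs and Col5a3 with 24 lay just inside the limit, and Col10a1 with 10, Col9a2 with 3 and Col8a2 with 3 lay just outside it. The measurements were single-cell transcriptomes (10x Chromium, 3′ chemistry version 3) of dissociated mouse testis. There were 2 libraries labelled HFD, a high-fat diet, and 2 labelled ND. The labels do not spell out ND, and the design text of the series sets normal against high-fat diet mice. The labels name no strain, genotype, age, diet composition or length of feeding, and do not say whether a library came from 1 animal or from a pool. The tissue had been digested with collagenase IV and dispase II before the cells were loaded.

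Collagens are trimeric proteins of the extracellular matrix. Fibrillar collagens form the tension-bearing fibrils of the interstitium, collagen IV chains form the network of basement membranes, and fibril-associated and transmembrane collagens decorate fibrils or anchor cells. Laminins are assembled from an alpha, a beta and a gamma chain and make up the cell-facing sheet of the basement membrane. In the testis such a membrane surrounds each seminiferous tubule, where Sertoli cells and germ cells rest on it, and peritubular myoid cells and interstitial fibroblasts lie outside it.

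The libraries held 13561 to 15290 barcodes and 143748262 to 154221188 UMIs, and 13122 to 14468 cells per library were kept after filtering. Pairs of libraries shared 42 to 65 barcodes, 0.292% to 0.465% of either library. Clusters were named from marker lists that held no collagen or laminin gene, and each class is called by its likeness to those markers. The classes were fibroblast-like (356 cells), Leydig-like (1277), Sertoli-like (396), macrophage-like (370), lymphocyte-like (290), spermatogonia-like (214), early-spermatocyte-like (2951), pachytene-like and later spermatocyte-like (14242), round-spermatid-like (12237) and elongating-spermatid-like cells (9351). A further cluster of 42 endothelial-like cells also carried pericyte markers. No cluster was named myoid-like or pericyte-like, and 12094 cells of 5 clusters on the germ-cell side and 1097 cells of 7 clusters on the somatic side stayed unnamed. Fibroblast-like cells had a median of 1920.5 UMIs and 10 of 12 fibroblast markers detected. Their second score was for pericytes and vascular smooth muscle (2.28, against 4.24 for fibroblasts). Alternative settings were a 10% mitochondrial limit, Leiden resolution 2, and collagen and laminin genes kept in the clustering. In these a cluster of 86, 91 and 131 cells scored highest for that pericyte list. It stayed unnamed and held more cells in each HFD library than in either ND library. Its part in fibroblast-like levels and ratios was not tested. Spermatid markers were also read in somatic classes. The summed level of elongating-spermatid markers was 8488 to 13196 CPM (counts scaled to 1e+06 counts of the class) in fibroblast-like cells, against 158720 to 168480 CPM within elongating-spermatid-like cells.

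Most members had their highest level in fibroblast-like cells, although most of their UMIs, like those of all genes, lay in germ-cell-like classes. Of 180289 member UMIs in kept cells, 90.3% ± 0.769 (SD, n = 4 libraries) lay in germ-cell-like classes, at 89.1% and 90.7% in the HFD libraries and 90.8% and 90.4% in the ND libraries. Of the UMIs of all genes in kept cells, 92.2% lay there (91.1% and 92.8% in HFD, 92.6% and 92.3% in ND), so the members' share was slightly below that of all RNA in each library. Fibroblast-like cells held 1.27% and Leydig-like cells 1.52% of the member UMIs. Without Col22a1 and Col20a1, the members with the most UMIs, the germ share was 85.1%. It was 93.1% for the 13 fibril-associated, transmembrane and other collagens, 86.4% for the 17 basement membrane and network collagens, 82.2% for the 11 fibrillar collagens and 74.2% for the 11 laminin chains. Levels were ranked over the 9 classes with at least 50 cells in every library, and "highest" and "next" refer to these throughout. By level (CPM of the class total, mean of 4 libraries), 30 of 52 members were highest in fibroblast-like cells, 7 in elongating-spermatid-like, 6 in round-spermatid-like, 3 in lymphocyte-like and 2 in Sertoli-like cells. Another 2 were highest in pachytene-like cells, 1 in early-spermatocyte-like cells and 1 in Leydig-like cells. For 30 members every library of the highest class lay above every library of the next class, 19 of them in fibroblast-like cells and 10 in a germ-cell-like class. Some fibroblast-like leads rested on few UMIs, such as 2 each for Col17a1, Col7a1, Col24a1 and Lama3. For the other members the libraries of the leading classes overlapped. The ranking leaves out endothelial-like and spermatogonia-like cells, which had fewer cells. Over all libraries, endothelial-like cells were above the highest ranked class for Col4a1, Col4a2, Col15a1 (101 CPM, 14 UMIs), Col18a1, a basement membrane collagen (57.8 CPM, 8 UMIs), Lama4, a laminin alpha chain of vessels (43.4 CPM, 6 UMIs), Lamc1 (43.4 CPM, 6 UMIs), and other members on at most 5 UMIs each. Spermatogonia-like cells were above it for Lama5 and, on 5 UMIs, Col17a1. The classes were made by clustering the same cells, so these levels are a description and carry no test. UMIs near the 3′ end do not allow levels of different genes to be ranked.

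**Figure D1:**
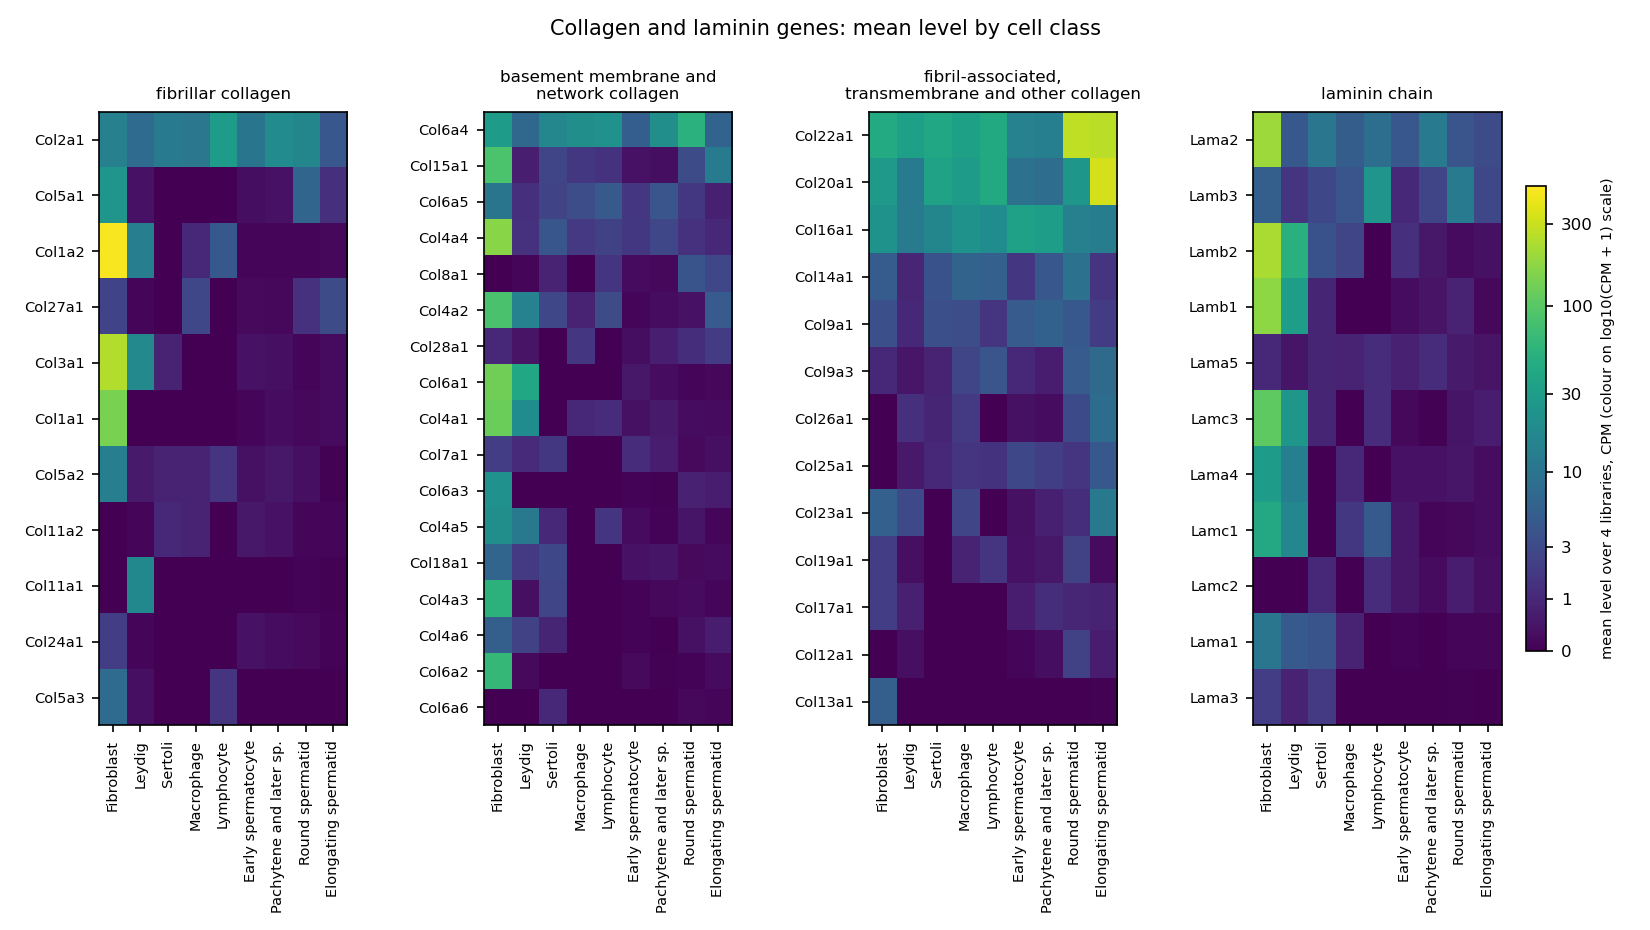
Mean level of each of the 52 members (rows, ordered by UMIs within the 4 role groups) in 9 cell classes (columns), in CPM of the class total averaged over 4 libraries, on a log10(CPM + 1) colour scale. Bright cells cluster in the fibroblast column for fibrillar, collagen IV, collagen VI and laminin genes, and in the spermatid columns for Col22a1 and Col20a1.

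Among the fibrillar collagens, the interstitial chains Col1a2, Col3a1 and Col1a1 were highest in fibroblast-like cells. Col1a2 (ENSMUSG00000029661, chr6:4504814-4541544 on GRCm38, + strand), a chain of collagen I, had 371 and 305 CPM in the fibroblast-like cells of the HFD libraries and 659 and 567 CPM in those of the ND libraries. Its mean there, 475 CPM ± 165 (SD, n = 4), was 35.7 times that in Leydig-like cells, and the libraries of the 2 classes did not overlap. At least 1 Col1a2 UMI was seen in 57.3% of fibroblast-like cells (exact 95% interval 52.0 to 62.5), in 6.81% of Leydig-like cells (median depth 5780 UMIs) and in 0 of 396 Sertoli-like cells (median depth 2292.5 UMIs). The floor of 3 UMIs in Sertoli-like cells is 2.81 CPM. Such intervals and floors cover counting error only.

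Col3a1, the chain of collagen III, had 224, 224, 294 and 236 CPM in fibroblast-like cells of HFD 1, HFD 2, ND 1 and ND 2, and 15.6, 22.1, 14.2 and 18.7 CPM in Leydig-like cells. Col1a1, the other chain of collagen I, had 135, 42.3, 218 and 171 CPM in fibroblast-like cells, in the same order, and 0 UMIs in Leydig-like cells, where the floor is 0.414 CPM. HFD 2 was the lowest library for Col1a1, with 10 UMIs. In Leydig-like cells Col1a2 had 101 UMIs. Exons of Col3a1 share 141 bases with a non-coding gene of the same strand.

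Col11a1 (ENSMUSG00000027966, chr3:114030540-114220718, + strand), a chain of the minor fibrillar collagen XI, was the single member highest in Leydig-like cells. It had 27.2 and 22.1 CPM there in HFD and 8.98 and 10.7 CPM in ND, with 116 UMIs in all, and 0 UMIs in fibroblast-like cells, where the floor is 3.38 CPM. The UMIs came from 99 of 1277 Leydig-like cells, 7.75% (6.35 to 9.36), and none was seen in Sertoli-like, macrophage-like or lymphocyte-like cells. Col5a1, a chain of collagen V, was highest in fibroblast-like cells at 24.3 CPM ± 13.5 (SD, n = 4) and next among the ranked classes in round-spermatid-like cells at 6.54 ± 0.622 CPM. In spermatogonia-like cells it was at 13.6 CPM over all libraries, on 16 UMIs. The fibrillar member with the most UMIs, Col2a1, the cartilage collagen, was at 18.9 ± 1.71 CPM in pachytene-like and 16.4 ± 1.10 CPM in round-spermatid-like cells. Its highest mean, 30.1 ± 16.7 CPM in lymphocyte-like cells, rested on 21 UMIs and overlapped the pachytene libraries. Col27a1 was at 3.12 ± 0.342 CPM in elongating-spermatid-like cells, overlapping the macrophage-like libraries.

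The stretches of sequence just before the annotated starts of Col11a1 and Col3a1 are given because the first of these fibrillar genes was highest in Leydig-like and the second in fibroblast-like cells, and the stretch between Col4a4 and Col4a3 because these neighbours start head to head and were both highest in fibroblast-like cells. The sequences are from RefSeq (GRCm38.p6), read 5′ to 3′ on the strand of the named gene, at chr3:114030290-114030539 (+), chr1:45311288-45311537 (+) and chr1:82586850-82586920 (-). Capitals mark exact matches, on either strand, to a TATA box with the letters TATAAA, to a box with the letters CCAAT, or to a GC box with the letters GGGCGG.
Col11a1: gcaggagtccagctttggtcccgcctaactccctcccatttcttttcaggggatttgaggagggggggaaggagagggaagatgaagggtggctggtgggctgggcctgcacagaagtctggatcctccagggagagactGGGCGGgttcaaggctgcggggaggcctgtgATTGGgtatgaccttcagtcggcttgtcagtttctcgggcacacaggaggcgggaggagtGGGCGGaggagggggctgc
Col3a1: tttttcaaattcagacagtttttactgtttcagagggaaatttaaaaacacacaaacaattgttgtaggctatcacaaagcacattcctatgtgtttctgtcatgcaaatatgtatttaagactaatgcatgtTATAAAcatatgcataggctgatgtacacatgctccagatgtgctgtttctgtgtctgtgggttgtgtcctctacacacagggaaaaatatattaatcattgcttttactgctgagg
Col4a4 to Col4a3: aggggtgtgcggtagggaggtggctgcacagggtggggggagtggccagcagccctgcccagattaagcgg

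The Col11a1 stretch is 62.4% G and C and holds GC boxes that begin at -110 and -19 and a CCAAT box, on the other strand, that begins at -79, counted from the annotated start. The Col3a1 stretch is 35.2% G and C and holds 1 match, a TATA box at -117. The 71 bases between the starts of Col4a4 and Col4a3 hold no match to the 3 motifs. RefSeq promoter windows were found for 37 members, and over the 250 bases before the start 4 of these held a TATA box, 13 a CCAAT box and 21 a GC box. Each member entered with 1 start, the RefSeq start nearest the 5′ end of the gene in GENCODE. That start lay 94295 bases from the 5′ end for Lamb3 and 49344 for Col25a1. Among all 32851 RefSeq starts, with no choice of 1 start per gene, the shares were 12.4%, 33.9% and 32.7%. A match is a run of letters and says nothing of the factor.

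Among the 9 ranked classes, 13 of 17 basement membrane and network collagens were highest in fibroblast-like cells. Of these, Col4a5, Col6a5, Col18a1, Col4a6 and Col7a1 overlapped the next class, on 18, 9, 6, 5 and 2 UMIs in fibroblast-like cells. Col4a4 and Col4a3, collagen IV chains known best from the kidney filter, were at 165 ± 86.4 and 52.9 ± 19.7 CPM (SD, n = 4), and at 4.22 and 2.66 CPM in the next ranked class, Sertoli-like cells. Col4a4 ranged from 76.2 CPM in HFD 2 to 282 CPM in ND 1. Col4a1 and Col4a2, the chains of nearly all basement membranes, share their first 22 bases on opposite strands. They had 123 ± 52.5 and 83.9 ± 19.7 CPM in fibroblast-like cells and 19.5 ± 5.26 and 14.7 ± 4.59 CPM in Leydig-like cells. In the 42 endothelial-like cells they were higher still, at 224 and 202 CPM over all libraries, from 31 and 28 UMIs. In elongating-spermatid-like cells the pair parted. There Col4a2 had 4.98, 5.65, 5.31 and 4.0 CPM in HFD 1, HFD 2, ND 1 and ND 2, and Col4a1 had 0.356, 0.136, 0.114 and 0.246 CPM. Col4a2 was thus higher in elongating-spermatid-like than in round-spermatid-like cells (0.352 ± 0.0979 CPM) in every library, while the Col4a1 libraries of these classes (round-spermatid-like mean 0.237 ± 0.0959 CPM) overlapped.

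Collagen VI, a microfibril of the space around cells, divided by chain. Col6a1 had 129 ± 45.5 CPM in fibroblast-like and 40.6 ± 2.62 CPM in Leydig-like cells (SD, n = 4). Its assembly partners Col6a2 and Col6a3 had 62.1 ± 19.1 and 22.1 ± 9.47 CPM in fibroblast-like cells, but in Leydig-like cells Col6a2 had 1 UMI and Col6a3 had 0, against 297 UMIs of Col6a1. Col6a4, a related chain, was instead highest in round-spermatid-like cells. It had 51.0 and 52.4 CPM there in HFD and 53.0 and 53.9 CPM in ND. It was at 20.6 ± 0.418 CPM in pachytene-like cells, and at 6.29 ± 0.734 CPM in elongating-spermatid-like cells. Col15a1, a collagen of the outer basement membrane, had 85.1 ± 45.9 CPM in fibroblast-like cells, 101 CPM over all libraries in endothelial-like cells, and 12.05 ± 1.23 CPM in elongating-spermatid-like cells, where 46.2% of its UMIs lay. Col8a1, a network collagen, was highest in round-spermatid-like cells at 4.06 ± 0.257 CPM, and Col6a5 rested on 9 UMIs in fibroblast-like cells.

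Fibril-associated and transmembrane collagens had 93.1% of their UMIs in germ-cell-like classes, near the 92.2% of all genes. Col22a1 (ENSMUSG00000079022, chr15:71795795-72034227, - strand), a collagen known from tissue junctions such as that of muscle and tendon, had 267 and 264 CPM in round-spermatid-like cells in HFD and 294 and 288 CPM in ND. In elongating-spermatid-like cells it had 246, 250, 275 and 271 CPM in the same order, overlapping the round-spermatid range, and in pachytene-like cells 11.4, 10.6, 15.3 and 16.6 CPM. A Col22a1 UMI was present in 88.2% of round-spermatid-like cells (87.6 to 88.7, median depth 11797 UMIs) and 16.1% of Leydig-like cells (median depth 5780). The 5 somatic classes had 32.7 to 43.2 CPM of Col22a1 over all libraries, above the 13.1 and 14.9 CPM of pachytene-like and early-spermatocyte-like cells. Spermatid marker RNA was present in those somatic classes too, and its part in these levels was not tested.

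Col20a1 (ENSMUSG00000016356, chr2:180986535-181018363, + strand), a fibril-associated collagen, was highest 1 stage later. It had 330, 325, 349 and 350 CPM in elongating-spermatid-like cells of HFD 1, HFD 2, ND 1 and ND 2, 25.8, 27.7, 25.1 and 26.0 CPM in round-spermatid-like cells, and 8.12, 8.22, 8.07 and 8.55 CPM in pachytene-like cells. The libraries of these classes did not overlap. A UMI was found in 67.7% of elongating-spermatid-like cells (median depth 4987 UMIs) and in 9.09% of Sertoli-like cells (median depth 2292.5 UMIs). Exons of Col20a1 share 79 bases with a non-coding gene of the same strand, and the share of its UMIs that falls there was not measured.

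Within the spermatid-like classes both genes moved from cluster to cluster. In the 4 round-spermatid-like clusters Col22a1 had mean levels of 109, 217, 364 and 410 CPM, the last in the cluster with the highest score for elongating-spermatid markers. Col20a1 was at 6.98, 7.06, 7.74 and 93.8 CPM in the same 4 clusters. In the elongating-spermatid-like clusters, Col22a1 was at 379 CPM in the deepest (median 12183 UMIs), 282 CPM in the one led by Tnp2 and Tnp1 (transition proteins of condensing chromatin), and 117, 56.3 and 31.7 CPM in the 3 shallower ones. Col20a1 was at 372, 445, 273, 204 and 42.0 CPM in that order. Median depths of those 5 clusters ran from 12183 and 7040 to 3864.5, 3199 and 1974.5 UMIs, so Col22a1 fell with depth, while Col20a1 was higher in the second deepest cluster than in the deepest. The part of depth was not tested.

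**Figure D2:**
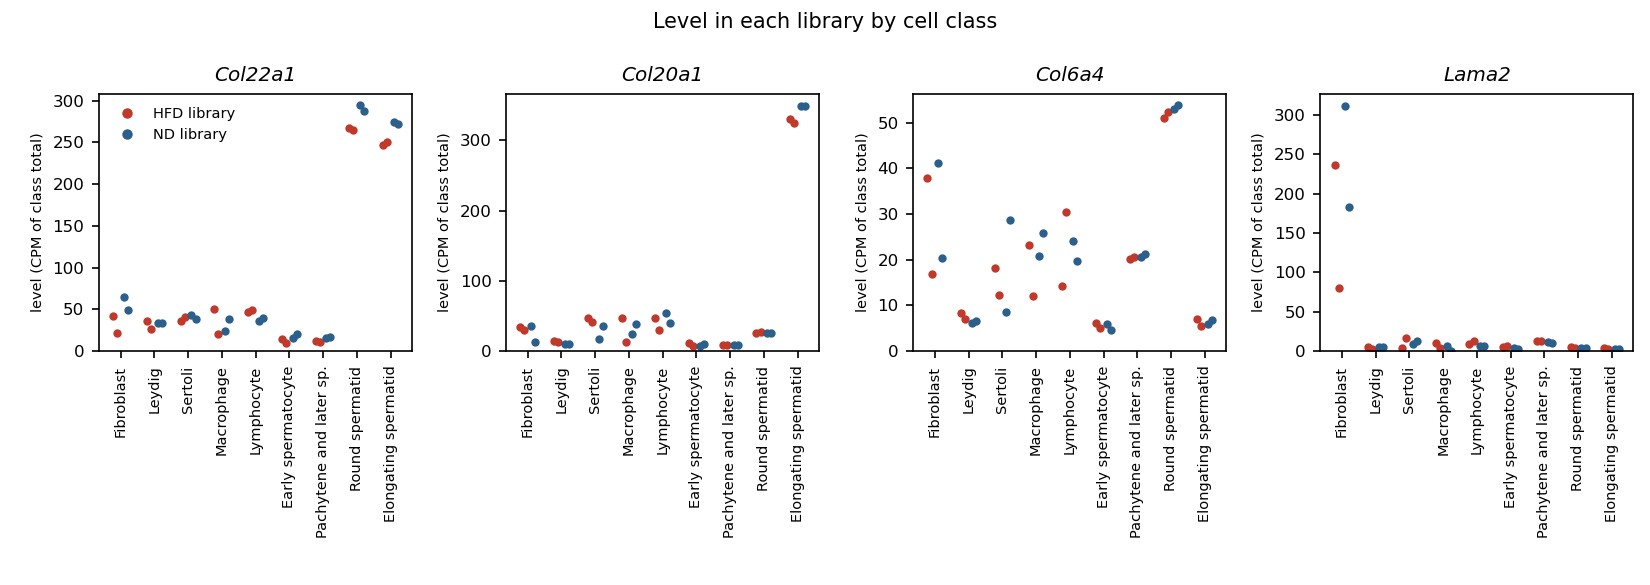
Level of Col22a1, Col20a1, Col6a4 and Lama2 in each library (points, red HFD and blue ND) by cell class, in CPM of the class total on linear axes that start at 0. Col22a1 stands at 246 to 294 CPM in both spermatid classes, Col20a1 at 325 to 350 CPM in elongating-spermatid-like cells, Col6a4 is highest in round-spermatid-like cells, and Lama2 spreads from 80.4 to 312 CPM in fibroblast-like cells.

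Col16a1, a fibril-associated collagen, was highest in spermatocyte-like cells. It had 34.1 ± 1.4 CPM (SD, n = 4) in early-spermatocyte-like and 31.3 ± 0.736 CPM in pachytene-like cells, and 14.04 ± 0.972 CPM in round-spermatid-like cells. Col14a1, which coats collagen fibrils, was highest in round-spermatid-like cells at 9.14 ± 0.513 CPM. Col9a1 and Col9a3, chains of collagen IX, differed in stage: Col9a1 was highest in pachytene-like cells at 5.83 ± 0.0997 CPM, overlapping early-spermatocyte-like cells, and Col9a3 in elongating-spermatid-like cells at 7.66 ± 0.508 CPM. Col26a1 was also highest in elongating-spermatid-like cells, at 8.05 ± 0.548 CPM.

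Laminin chains were the least germ-cell-weighted group, and 8 of 11 were highest in fibroblast-like cells among the ranked classes. Of these, Lama1 and Lama3 overlapped the next class, on 9 and 2 UMIs in fibroblast-like cells. Lama2 (ENSMUSG00000019899, chr10:26980036-27619758, - strand), the alpha chain of muscle laminin, had 236, 80.4, 312 and 183 CPM in fibroblast-like cells of HFD 1, HFD 2, ND 1 and ND 2. It was also read in pachytene-like cells, at 12.5, 12.8, 11.2 and 10.7 CPM, which was 17.2 times lower in the mean. The pachytene-like cells, which are far more numerous, held 2619 UMIs of Lama2 and fibroblast-like cells 173. Its exons share 631 bases with an antisense gene, and the sources used here do not state whether counting used strand.

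Lamb2 and Lamb1, beta chains, had 228 ± 33.9 and 173 ± 50.2 CPM in fibroblast-like cells, and 50.2 ± 6.23 and 30.8 ± 10.1 CPM in Leydig-like cells (SD, n = 4). The gamma chains Lamc3 and Lamc1 followed the same order, at 107 ± 51.6 and 41.7 ± 14.6 CPM in fibroblast-like cells and 26.0 ± 4.57 and 16.8 ± 1.39 CPM in Leydig-like cells. For all 4 chains the libraries of the fibroblast-like and Leydig-like classes did not overlap. Lamb3, a beta chain of epithelial laminin, was at 12.2 ± 0.677 CPM in round-spermatid-like cells, while its highest mean, 24.4 ± 15.5 CPM in lymphocyte-like cells, rested on 16 UMIs. Lama5, an alpha chain of mature basement membranes, was at 1.22 ± 0.164 CPM in pachytene-like cells. In the 214 spermatogonia-like cells, which were too few in some libraries to enter the ranking, Lama5 had 15.8, 15.3, 18.7 and 28.7 CPM, above each library of the 9 ranked classes. Sertoli-like cells, which rest on the tubule basement membrane, had at most 10.3 CPM of any laminin chain over all libraries, at a median depth of 2292.5 UMIs. The class was a single cluster. A marker gate (at least 3 markers of a list, and more than of any other somatic list) took 831 cells of unnamed clusters as Sertoli cells, against 390 of this class. A deeper cluster with Sertoli as its best score (29 cells, median 5040 UMIs) was among the unnamed. The laminin levels of those cells are not given here.

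In the whole testis, collagen and laminin genes with a diet call were mostly lower in HFD. UMIs were summed per library over all kept cells and tested with edgeR's quasi-likelihood test, with Benjamini-Hochberg adjustment over all 25470 genes tested and a threshold of 0.05. CPM in the diet comparisons are scaled to the library total with edgeR's TMM factors. In this sum, 49 of 52 members passed the filter on low counts, 2 were called higher and 14 lower in HFD. Over all genes tested, 34.3% were called, 15.3% higher and 18.9% lower. The libraries of the diets did not overlap for 34 of the 49, against 67.4% of all genes. The share of members called was thus near that of all genes, and the calls were mostly lower. The median log2 ratio (HFD over ND) was -0.20 for the members tested and -0.02 for all genes.

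The members called higher were Lama2 and Col16a1. Lama2 had 9.16 and 8.59 CPM in HFD and 6.96 and 6.44 CPM in ND. On the log2 scale the ratio was 0.41 (SE 0.067; edgeR adjusted p 0.000338). Col16a1 had 24.6 and 25.6 CPM in HFD and 22.01 and 22.6 CPM in ND, and its ratio was 0.17 (SE 0.046; edgeR adjusted p 0.0097). Both had most of their UMIs in spermatocyte-like cells. Pachytene-like cells made up 26.7% and 31.0% of kept cells in HFD and 23.4% and 22.9% in ND.

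Col1a2 fell most among the 14 called lower. It had 0.930 and 0.767 CPM in HFD and 1.35 and 1.602 CPM in ND, and the groups did not overlap. The log2 ratio was -0.80 (SE 0.145; edgeR adjusted p 0.000733). Of the other members called lower, Col4a5 had a ratio of -0.77, Lamb1 one of -0.76, Col6a1 one of -0.56, Lamc3 one of -0.52, Lamc1 one of -0.50 and Col4a1 one of -0.48. Among the 9 ranked classes these members were highest in fibroblast-like and next in Leydig-like cells, as was Col1a2. Over all libraries, endothelial-like cells were above Leydig-like cells for Col1a2 and Lamb1 (43.4 CPM each, on 6 UMIs each), and above fibroblast-like cells too for Col4a1 (224 CPM) and Lamc1 (43.4 CPM, on 6 UMIs). Col5a1 (-0.45) and Col15a1 (-0.34) were highest in fibroblast-like cells with a spermatid class next, in the same ranking. Leydig-like cells made up 1.79% and 1.93% of kept cells in HFD and 2.67% and 2.85% in ND. In a sum over all cells, fewer cells of a type and less RNA per cell cannot be told apart.

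The remaining members called lower had their highest level in a spermatid-like class. Col22a1 had 121 and 113 CPM in HFD and 158 and 153 CPM in ND, and its log2 ratio was -0.41 (SE 0.043; edgeR adjusted p 1.8e-05). Col9a3 had a ratio of -0.35, Col26a1 one of -0.34, Col20a1 one of -0.21 and Col6a4 one of -0.13. Round-spermatid-like cells made up 19.6% and 19.7% of kept cells in HFD and 24.6% and 24.9% in ND, and the part of this share in the ratios was not tested in the sum. Calls for Lamc1, Lamc3, Col15a1, Col26a1 and Col6a4 were the least stable: they stood in 5, 8, 9, 9 and 6 of 14 alternative settings. The calls for Col1a2, Lamb1 and Col22a1 stood in all 14.

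**Figure D3:**
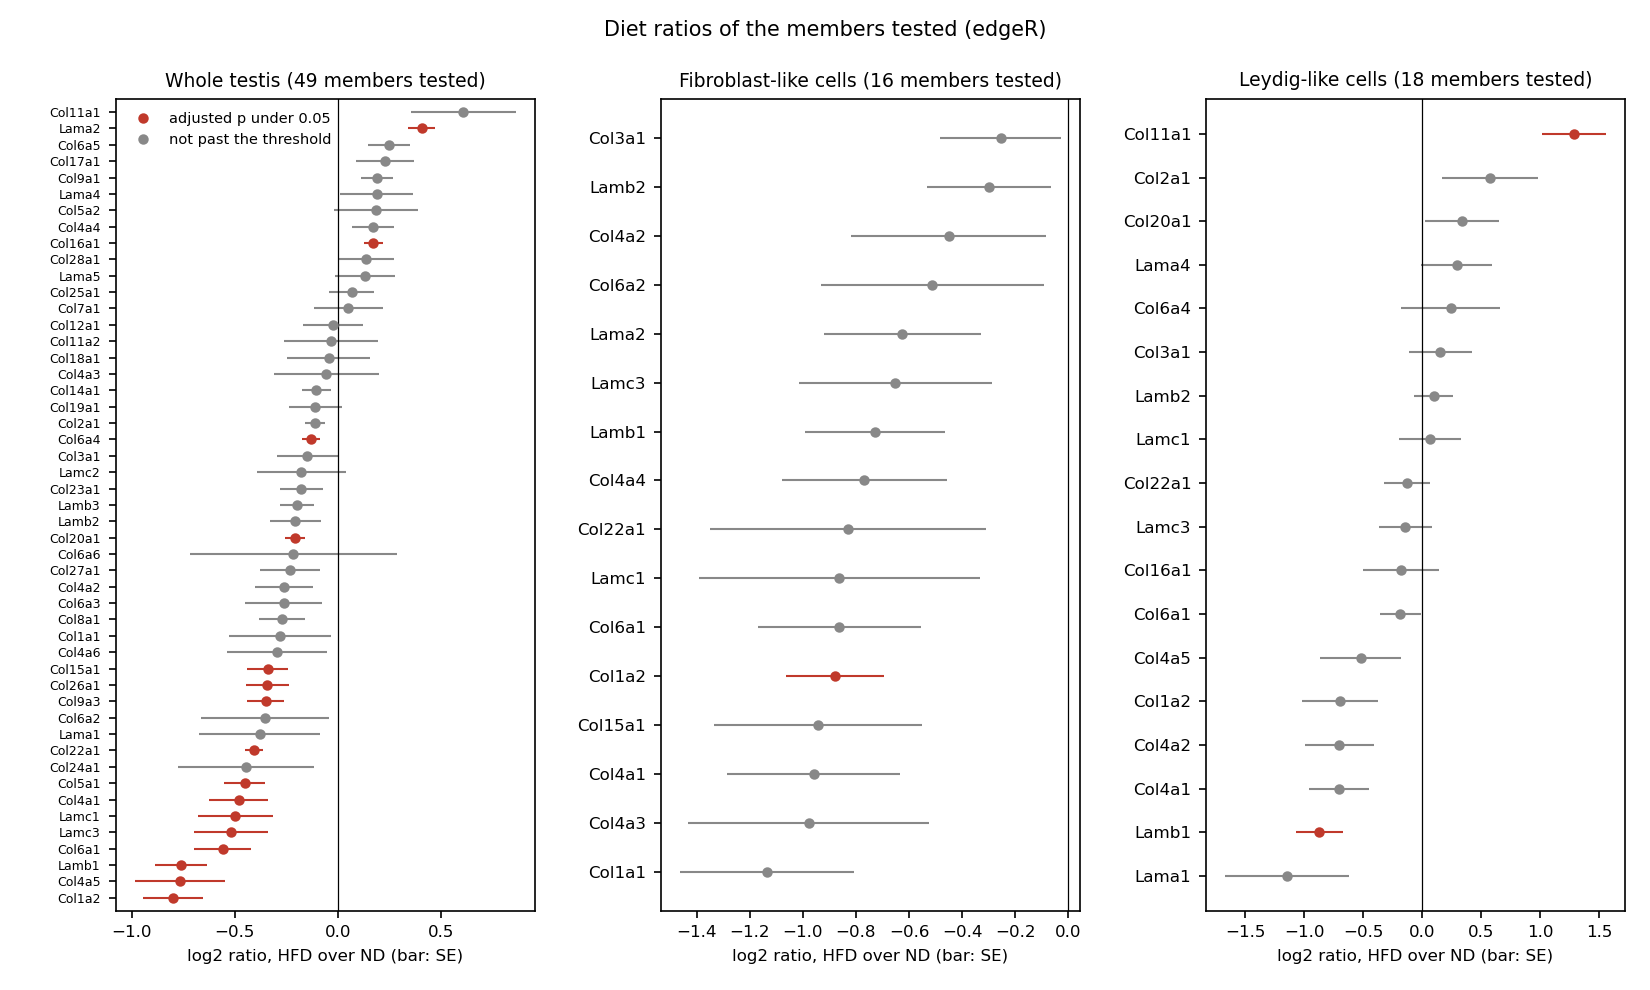
Log2 ratio of HFD over ND with its SE (edgeR) for each member tested in the whole testis (49), fibroblast-like cells (16) and Leydig-like cells (18), with red points for an adjusted p under 0.05. The whole-testis panel holds 2 red points above 0 and 14 below, the fibroblast-like panel has all its points below 0 with Col1a2 in red, and the Leydig-like panel has Col11a1 in red above 0 and Lamb1 in red below.

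In fibroblast-like cells the fitted ratios of the members tested were below 0, and 1 passed the test. The class had 85 and 80 cells in HFD and 95 and 96 in ND, and 16 of 52 members passed the filter on low counts there. Of 4787 genes tested, 0.418% were called and 0.355% were called lower. The diets did not overlap for 12 of the 16, against 38.2% of all genes tested. The median log2 ratio of the members tested was -0.80, and that of all genes tested -0.01. The members' median was -0.53 without HFD 2, -0.41 with a mitochondrial limit of 10% or with no filter on low counts, -0.40 at Leiden resolution 2, -0.38 with members among the clustering genes and -0.18 by a marker gate. Members that passed the filter through the libraries in which they were higher are among these, so neither figure supports a change of the group.

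The call was Col1a2. It had 88 and 72 UMIs, or 432 and 349 CPM, in HFD and 112 and 139 UMIs, or 788 and 661 CPM, in ND. Both HFD libraries lay below both ND libraries, and the log2 ratio was -0.88 (SE 0.185; edgeR adjusted p 0.0137). The call did not hold without HFD 2 (-0.72; edgeR adjusted p 0.74) or without ND 1 (-0.76; edgeR adjusted p 0.227), and it was made in 8 of 18 alternative settings, with ratios from -0.36 to -1.03. DESeq2 gave an adjusted p of 0.999 and limma one of 0.0679.

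Other chains in fibroblast-like cells were lower without passing. Among them was Col22a1, a member highest in round-spermatid-like cells, with a log2 ratio of -0.83. Col1a1 had 157 and 48.5 CPM in HFD and 260 and 200 CPM in ND, a ratio of -1.14 (SE 0.328; edgeR adjusted p 0.141). Col4a1 had 137 and 58.2 CPM against 197 and 186 CPM, a ratio of -0.96 (SE 0.327; edgeR adjusted p 0.333). Col3a1 had 260 and 257 CPM against 352 and 276 CPM, and its ratio of -0.26 was close to its SE of 0.228.

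Some marker sums in the class also differed between the diets. The summed level of the 12 fibroblast markers in the class was 4504 and 4485 CPM in HFD and 6613 and 6404 CPM in ND. The 8 myoid markers summed to 148 and 123 CPM in HFD and 347 and 285 CPM in ND, with 2 and 4 of them at 0 in HFD and 1 and 1 in ND. The 11 Sertoli markers summed to 333 and 330 CPM in HFD and 641 and 465 CPM in ND, with 5 and 2 at 0 in either diet. Elongating-spermatid markers summed to 12231 and 8488 CPM in HFD and 13196 and 11202 CPM in ND, with overlapping groups. Round-spermatid markers summed to 489 and 482 CPM in HFD and 712 and 587 CPM in ND, and macrophage markers to 8.44 and 4.23 CPM in HFD and 11.8 and 20.4 CPM in ND. Of the macrophage markers, 7 and 8 were at 0 in HFD and 7 and 6 in ND, so that sum rested on few UMIs. Early-spermatocyte markers were higher in HFD, at 308 and 351 CPM against 259 and 245 CPM in ND. The sums of the other lists (pachytene, spermatogonia, Leydig, pericyte, endothelial and lymphocyte) overlapped between the diets. Median depth was 2160 and 2022 UMIs in HFD and 1595 and 1729.5 UMIs in ND. The part of these in the ratios was not tested.

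Leydig-like cells gave calls in opposite directions, Col11a1 higher and Lamb1 lower in HFD. In this class 18 of 52 members passed the filter and 2 were called, where 4.74% of 11618 genes were called, 2.30% higher and 2.44% lower. Col11a1 had 42 and 32 UMIs, or 27.2 and 22.2 CPM, in HFD and 19 and 23 UMIs, or 9.33 and 10.9 CPM, in ND. Both HFD libraries lay above both ND libraries, and the log2 ratio was 1.28 (SE 0.273; edgeR adjusted p 0.0022). Lamb1 (ENSMUSG00000002900, chr12:31265234-31329644, + strand) had 34 and 32 UMIs, or 21.99 and 22.2 CPM, in HFD and 81 and 87 UMIs, or 39.8 and 41.3 CPM, in ND. Its groups did not overlap either, and the log2 ratio was -0.87 (SE 0.201; edgeR adjusted p 0.0056). The share of all genes without overlap in Leydig-like cells is not given here, so the lack of overlap adds no support to either call.

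Both calls were lost without HFD 1, where the edgeR adjusted p was 0.0642 for Col11a1 and 0.0625 for Lamb1, and when cells were chosen by a marker gate, where the ratios were 1.19 and -0.95. DESeq2 set the adjusted p of both aside. Col11a1 was called in 17 and Lamb1 in 15 of 20 settings. A Leydig-like cluster with Lcn2, Apoc1, Ptgds and Klk1b24 at the head of its genes held 3 and 4 cells in HFD and 90 and 97 in ND, and without it the ratios were 1.42 and -0.94. Fibroblast markers summed to 243 and 263 CPM in Leydig-like cells of HFD and 436 and 463 CPM in ND, with 1 to 3 of the 12 at 0 in each library. Sertoli markers summed to 3832 and 3635 CPM in HFD and 4591 and 4510 CPM in ND, and Leydig markers to 26311 and 26718 CPM against 31612 and 27565 CPM. Myoid markers summed to 133 and 137 CPM in HFD and 152 and 154 CPM in ND. Pachytene markers were higher in HFD, at 1759 and 1674 CPM against 1305 and 1470 CPM, as were early-spermatocyte markers, at 132 and 101 CPM against 82.2 and 83.6 CPM. Mitochondrial UMIs were 3.69% and 3.97% in HFD and 4.25% and 4.38% in ND. Spermatogonia, round-spermatid, lymphocyte and pericyte sums were also lower and the macrophage sum higher in HFD without overlap, and the endothelial and elongating-spermatid sums overlapped. The pericyte sum rested on few UMIs, at 0 and 0 CPM in HFD and 0.945 and 1.40 CPM in ND. The part of these in the Col11a1 and Lamb1 ratios was not tested. Col11a1 was at 0 UMIs in fibroblast-like cells.

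The collagen IV chains Col4a1 and Col4a2 were lower in Leydig-like cells without passing. Col4a1 had 13.6 and 16.7 CPM in HFD and 25.0 and 24.2 CPM in ND (ratio -0.70; edgeR adjusted p 0.10). Col4a2 had 13.6 and 9.03 CPM in HFD and 20.6 and 16.6 CPM in ND (ratio -0.70; edgeR adjusted p 0.181). Lamb2, the other main beta chain, had 53.7 and 51.4 CPM in HFD and 42.7 and 55.5 CPM in ND, with overlapping groups and a ratio of 0.10 (SE 0.164). Col6a1 had 37.5 and 39.6 CPM in HFD and 43.7 and 44.1 CPM in ND, a ratio of -0.19 (SE 0.174; edgeR adjusted p 0.63).

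Col22a1 was called lower in HFD in 3 germ-cell-like classes, each of which pools clusters whose shares also differed between the diets. In early-spermatocyte-like cells its log2 ratio was -0.57, without a call. In pachytene-like cells 36 members were tested and 1 was called higher and 2 lower, against 6.68% of 19172 genes called, 2.73% higher and 3.95% lower. Col22a1 had 11.5 and 10.7 CPM there in HFD and 15.2 and 16.4 CPM in ND, and its log2 ratio was -0.51 (SE 0.066, edgeR adjusted p 0.000765). That call was made in 16 of 18 settings. In round-spermatid-like cells 35 were tested and Col22a1 alone was called, against 1.37% of 19658 genes called and 0.697% called lower, at 266 and 261 CPM in HFD and 297 and 291 CPM in ND. That ratio of -0.16 (SE 0.029; edgeR adjusted p 0.0298) was called in 11 of 18 settings. It was not called without HFD 1 (edgeR adjusted p 0.142), without HFD 2 (0.268), with doublets kept (0.287), with a mitochondrial limit of 10% (0.250), with members among the clustering genes (0.122), with no filter on low counts (0.257) or beyond 1.2-fold (edgeR adjusted p 1). In elongating-spermatid-like cells 26 were tested and 2 called lower, against 8.92% of 15292 genes called and 4.57% called lower. Col22a1 had 244 and 244 CPM in HFD and 279 and 279 CPM in ND, a ratio of -0.19 (SE 0.042; edgeR adjusted p 0.0043). Col20a1 had 327 and 317 CPM in HFD and 355 and 359 CPM in ND, a ratio of -0.15 (SE 0.041; edgeR adjusted p 0.0219). Neither call in elongating-spermatid-like cells held without HFD 1 (edgeR adjusted p 0.081 for Col22a1 and 0.113 for Col20a1) or without HFD 2 (0.160 and 0.368). For each of these calls the HFD and ND libraries did not overlap. The share of all genes without overlap in these classes is not given here, so this adds no support.

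Within those classes the clusters were not held in the same shares by each diet. The pachytene-like cluster with round-spermatid-like as its second class made up 15.4% and 14.8% of pachytene-like cells in HFD and 19.8% and 19.6% in ND. Col22a1 was highest among the pachytene-like clusters there, at 33.6 and 35.0 CPM in HFD and 36.75 and 36.77 CPM in ND. The cluster in which it was lowest made up 17.4% and 17.5% in HFD and 13.99% and 15.02% in ND, with 6.47 and 7.13 CPM against 8.83 and 10.6 CPM. In the other two clusters Col22a1 had 8.09 and 7.20 CPM in HFD against 11.3 and 13.2 CPM in ND, and 26.2 and 20.9 CPM against 24.7 and 28.8 CPM. HFD thus lay below ND without overlap in 3 of the 4 clusters and overlapped in 1. In round-spermatid-like cells the cluster with the lowest Col22a1 level made up 27.99% and 28.04% of cells in HFD and 22.6% and 22.3% in ND, and had 104.2 and 104.4 CPM against 115 and 114 CPM. Col22a1 was lower without overlap in all 4 round-spermatid-like clusters. In elongating-spermatid-like cells the deepest cluster made up 20.5% and 21.4% in HFD and 24.4% and 24.3% in ND, and Col22a1 was lower without overlap in 3 of the 5 clusters, as was Col20a1. These values within clusters carry no test, and the share of all genes without overlap in a cluster was not measured. The part of the cluster shares in the class ratios was not tested.

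Lama2 and Col2a1 completed the germ-cell calls. In early-spermatocyte-like cells 15 members were tested and Lama2 was called, against 1.0% of 14488 genes called and 0.511% called higher. It had 54 and 69 UMIs, or 5.67 and 6.35 CPM, in HFD and 34 and 27 UMIs, or 3.32 and 2.50 CPM, in ND, and the log2 ratio was 1.05 (SE 0.224; edgeR adjusted p 0.0283). The call stood in 11 of 16 settings. It was lost without HFD 2 (edgeR adjusted p 0.0889), without ND 2 (0.0771), with doublets kept (0.0683) and beyond 1.2-fold (0.269), and DESeq2 gave no adjusted p for it. Within the class, a cluster led by Tex101 held 2170 cells, with early-spermatocyte and pachytene scores of 0.887 and 0.627. It held 466 and 594 cells in HFD and 553 and 557 in ND. The other clusters held 62, 61 and 28 cells in HFD 1 and 90, 76 and 23 in HFD 2. In ND 1 they held 94, 79 and 54, and in ND 2 98, 79 and 37. With a UMI floor before clustering, or members among the clustering genes, the cluster led by Tex101 was named pachytene-like. Marker sums of the class differed between the diets too. Early-spermatocyte markers summed to 1713 and 1785 CPM in HFD and 1858 and 1846 CPM in ND, pachytene markers to 5141 and 5105 CPM against 4976 and 5067 CPM, and spermatogonia markers to 349 and 384 CPM against 434 and 425 CPM. Round-spermatid markers summed to 207 and 203 CPM in HFD and 235 and 269.6 CPM in ND, and Sertoli markers to 76.9 and 87.9 CPM against 91.96 and 104 CPM. Leydig, elongating-spermatid and endothelial sums were also lower and the macrophage sum higher in HFD without overlap, while fibroblast, myoid, pericyte and lymphocyte sums overlapped. The part of these clusters and sums in the Lama2 ratio was not tested. In pachytene-like cells Lama2 had 12.6 and 12.8 CPM in HFD and 11.1 and 10.6 CPM in ND (ratio 0.23, SE 0.063; edgeR adjusted p 0.0463). Col2a1 had 18.1 and 17.2 CPM in HFD and 20.6 and 19.9 CPM in ND (ratio -0.20, SE 0.053; edgeR adjusted p 0.0444). These calls of Lama2 and Col2a1 in pachytene-like cells stood in 8 and 6 of 18 settings. The cluster shares given above for pachytene-like cells stand beside these ratios too. Lama2 was higher in HFD without overlap in all 4 of those clusters and Col2a1 lower in 3 of the 4, with no test. Some gaps were narrow. In 1 cluster Col2a1 had 8.59 and 10.25 CPM in HFD and 11.15 and 10.28 CPM in ND. In another, Lama2 had 13.89 and 13.89 CPM in HFD and 13.43 and 12.58 CPM in ND. Lama2 was not called there without HFD 1 (edgeR adjusted p 0.119), HFD 2 (0.185) or ND 2 (0.127), and Col2a1 not without HFD 1 (edgeR adjusted p 0.0602), HFD 2 (0.292) or ND 1 (0.0616).

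**Figure D4:**
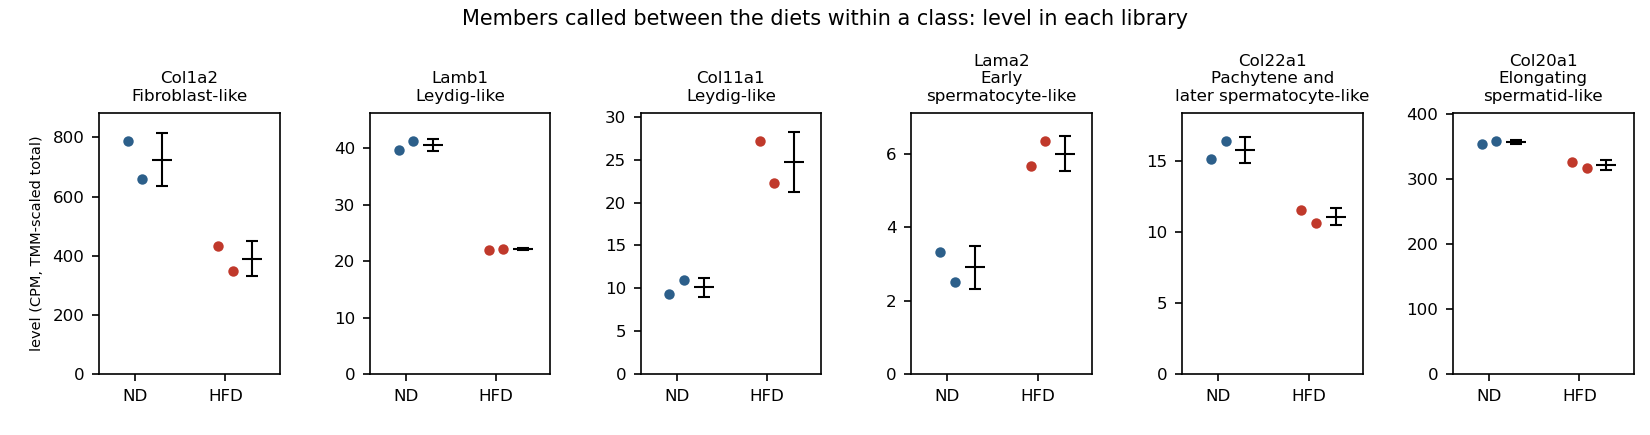
Level of 6 members in the class where edgeR called them, in TMM-scaled CPM for each library (points, blue ND and red HFD), with the mean and SD of each diet (black bars, n = 2), on linear axes that start at 0. In each panel the HFD points lie wholly on 1 side of the ND points: Col1a2, Lamb1, Col22a1 and Col20a1 below, Col11a1 and Lama2 above.

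Sertoli-like and macrophage-like cells could be compared for 2 members each, and lymphocyte-like cells for none. In both classes these were Col22a1 and Col20a1, which were highest in spermatid-like classes. Their log2 ratios were -0.08 and 0.67 in Sertoli-like and 0.14 and -0.09 in macrophage-like cells. edgeR called 0 of the 2 members in either class and gave 0 of them an unadjusted p below 0.05. By DESeq2 and by limma the count was 0 as well. Over all genes edgeR called 0 of 4652 in Sertoli-like cells, 2.41% of 5595 in macrophage-like cells and 0.611% of 3599 in lymphocyte-like cells. At this depth a change in the other members of these classes was not detectable.

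A list of matrix partner genes (enzymes that process collagen, other basement membrane proteins, fibril-bound proteoglycans, receptors, and proteases with their inhibitors) was read from the same fits. In the whole testis 88 of its genes were tested, 3 called higher and 25 lower, beside 34.3% called of all genes. The processing and cross-linking enzymes had 1 higher and 7 lower of 23, and the receptors 7 lower of 19. Basement membrane partners had 3 lower of 17, proteoglycans and glycoproteins 2 higher and 2 lower of 14, and proteases and inhibitors 6 lower of 15. By the rule of size, the named genes are Fbn2 (fibrillin, 0.30) and Mfap5 (a microfibril protein, 0.19), which rose, and Pcolce (an enhancer of procollagen cleavage, -0.43), Sparc (a collagen-binding protein, -0.35) and Timp2 (an inhibitor of matrix proteases, -0.35), which fell.

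In fibroblast-like cells 27 partners were tested and 3 called lower, beside 0.418% called and 0.355% called lower of all genes. The count was 0 without HFD 1, 1 without HFD 2, 1 without ND 1 and 2 without ND 2, and 0 by DESeq2, by limma, beyond 1.2-fold, with a mitochondrial limit of 10%, at Leiden resolution 2, with members among the clustering genes and by a marker gate. Sparc had 471 and 582 CPM in HFD and 802 and 984.8 CPM in ND (ratio -0.77; edgeR adjusted p 0.0241), and its relative Sparcl1 had 324 and 306 CPM in HFD and 626 and 485 CPM in ND (ratio -0.80; edgeR adjusted p 0.048). Lum, a proteoglycan of collagen fibrils, was read with 0 and 4 UMIs under HFD against 8 and 22 under ND. It passed the filter on low counts through the ND libraries alone, so its call is no support. Its fitted ratio depends on the prior count. Lum and Dcn are also among the fibroblast markers, as are Dpt and Mfap5, the latter named above as higher in HFD in the whole testis. In Leydig-like cells Ogn, a small proteoglycan, was the partner called higher (ratio 0.66; edgeR adjusted p 0.000298), and no partner was called higher by a marker gate. Dcn (-1.14), Plod2, a lysyl hydroxylase of collagen (-0.57), and Timp2 (-0.39) were the named partners among 4 called lower of 43 tested, beside 4.74% of all genes called. The 4 were 2 without HFD 1 or without HFD 2, and 1 by DESeq2, beyond 1.2-fold, with doublets kept or by a marker gate. Dcn had 20.7 and 24.3 CPM in HFD and 41.7 and 57.4 CPM in ND.

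Whether a diet ratio differed between classes was tested as an interaction in 1 edgeR fit for each pair, which treats the sums of 1 library as independent. Over the 3 pairs of fibroblast-like, Leydig-like and Sertoli-like cells, 61 member tests gave 0 calls by edgeR, with 0 of them below 0.05 before adjustment. Over all genes 0.00933% were called for Leydig-like minus Sertoli-like, 0.036% for Leydig-like minus fibroblast-like and 0 for Sertoli-like minus fibroblast-like cells. The smallest unadjusted p was 0.0749, for Col6a1 (edgeR adjusted p 0.872). No other tool was run on these differences. Lamb1 had ratios of -0.73 in fibroblast-like and -0.87 in Leydig-like cells, and the difference, Leydig-like minus fibroblast-like, was -0.20 (edgeR adjusted p 0.974), which does not show that they were equal. For members called in a class, 20 pairs of classes gave 39 tests, of which 2 were called. The share of all genes called in those 2 pairs was 0.0197% and 0.823%. Lama2 had a ratio of -0.62 in fibroblast-like and 1.05 in early-spermatocyte-like cells, a difference of -1.599 (edgeR adjusted p 0.0226). With the library as a block, which pairs the class sums of each library, this call was lost (edgeR adjusted p 0.714). Col22a1 had ratios of -0.51 in pachytene-like and -0.16 in round-spermatid-like cells, a difference of -0.33 (edgeR adjusted p 0.0257). With the library as a block its edgeR adjusted p was 8.4e-06, beside 6.77% of all genes called. That block also called Col22a1 in pachytene-like minus elongating-spermatid-like cells (-0.29, edgeR adjusted p 0.0088), beside 2.34% of genes. Col20a1 in round-spermatid-like minus elongating-spermatid-like cells was called too (0.165, edgeR adjusted p 0.0474), beside 4.29%. Without the block these last edgeR adjusted p were 0.198 and 0.269. The part of the cluster shares in these differences was not tested.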

How the data were processed

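Single-cell RNA was measured in 4 testis libraries, 2 HFD and 2 ND, grouped by the labels' treatment. The deposited matrices hold raw UMI counts per gene and barcode, per the file headers and values. The genome build is mm10, per the submitters' processing notes; the aligner is not given in the sources used here. All 55450 gene identifiers matched GENCODE M21. Separate deposited tables of dense expression values were not used here.

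Barcodes under 200 genes or over 20% mitochondrial UMIs were dropped, and 421 to 853 doublets per library called by Scrublet (scanpy 1.11.5, Python 3.11.15) were removed. Cells were clustered without the collagen and laminin genes (2000 variable genes, 30 components, 15 neighbours, Leiden resolution 1) and named from marker lists. Counts were summed per library, over all cells or within classes of at least 50 cells per library, and tested with edgeR 4.0.16 in R 4.3.3 (filterByExpr, TMM, quasi-likelihood, adjusted p under 0.05), after a check on simulated counts. DESeq2 1.42.0 and limma 3.58.1 on log2(CPM + 1) were alternatives. The labels do not say that libraries came from separate animals, so p-values measure the spread between libraries, which may be technical. Class levels were not tested.

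Members and lists were chosen with earlier results of these data known. The 6 members with the most UMIs per role group and every member called were named. Col4a3, Col6a2 and Col6a3, and the sequences shown, were chosen after their values were seen. Partner genes were named up to 3 per direction and compartment, if called, not overlapping and at 20 CPM or more. Alternatives varied the test, filter, normalization, cell filters, clustering, cell choice and libraries.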

Additional observations from a re-analysis of the deposited data

Results flagged for a closer look

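The diet ratio of 2 members differed between a pair of classes, by edgeR's interaction test with the sums of 1 library treated as independent. For Lama2, the ratio in fibroblast-like cells minus that in early-spermatocyte-like cells was -1.599 on the log2 scale (edgeR adjusted p 0.0226). That call was lost with the library as a block (edgeR adjusted p 0.714). Lama2 was lower in HFD in the mean of fibroblast-like cells, where HFD 1 lay between the ND libraries, and higher in 2 of 2 HFD libraries in early-spermatocyte-like cells. Marker sums differed between the diets in both of these classes, and their part was not tested. For Col22a1, the ratio in pachytene-like cells minus that in round-spermatid-like cells was -0.33 (edgeR adjusted p 0.0257). With the library as a block the edgeR adjusted p was 8.4e-06. In either class 2 of 2 HFD libraries lay below both ND libraries, and the share of all genes without overlap there is not given here. Col22a1 was at 13.1 CPM in pachytene-like and 280 CPM in round-spermatid-like cells over all libraries. The pachytene-like cluster with its highest level made up 15.4% and 14.8% of that class in HFD and 19.8% and 19.6% in ND, and the round-spermatid-like cluster with its lowest level 27.99% and 28.04% in HFD and 22.6% and 22.3% in ND. The part of these shares in the difference was not tested.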

How the results depend on the processing

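Of 591 alternative values for 39 single results, 436 were labelled the same, 139 weaker, 10 moved and 6 stronger. The results were ratios of called members, counts of members called in a class, and levels. Of the ratios, 293 kept direction and call, 113 kept the direction without the call, and none reversed. The other weaker values and the 6 stronger ones were counts. The 10 that moved were levels, by more than 1 SD. Counts that stayed at 0 in Sertoli-like, macrophage-like and lymphocyte-like cells gave 19, 19 and 18 of the values labelled the same. The count of members called in the whole testis, 16, was 8 by DESeq2 (2 higher, 6 lower), 10 with no filter on low counts, 3 for changes beyond 1.2-fold, and 9 to 17 with a library left out, lowest without HFD 2. In fibroblast-like cells the 1 call became 0 with DESeq2, limma, no filter, 1.2-fold, a mitochondrial limit of 10%, Leiden resolution 2, members among the clustering genes or a marker gate. It became 2 with doublets kept or with a UMI floor inside the same classes (chosen after seeing the data), and 0 to 3 with a library left out. A UMI floor before clustering gave no fibroblast-like class of 50 cells per library, so no value. In Leydig-like cells the 2 calls became 0 with DESeq2 or a marker gate, 1 for 1.2-fold or with doublets kept, and 0 to 2 with a library left out. The 28 partner calls of the whole testis became 15 by DESeq2, 16 with no filter, 4 for 1.2-fold, and 16 to 24 with a library left out. The germ share of 90.3% became 84.4% with doublets kept, 81.0% with the mitochondrial limit of 10%, 86.0% with the UMI floor and 79.4% with members among the clustering genes. In these settings a cluster that scored highest for round spermatids stayed unnamed, with 2983, 2932, 2381 and 4445 cells in the same order. Its median depth was 10884 to 11384 UMIs, and germ-side clusters unnamed in the main setting had at most 1958.5 UMIs. The part of that naming in these changes was not tested. Replicate numbers are only shared: deviations of same-numbered libraries correlated at 0.19 over genes in the whole testis, 0.10 in fibroblast-like and -0.06 in Leydig-like cells. With the replicate block, 20 members were called in the whole testis, 2 in fibroblast-like and 2 in Leydig-like cells, and 29 partners in the whole testis. For differences between classes the block was the library. It gave 0 calls between somatic classes. The Lama2 difference of fibroblast-like and early-spermatocyte-like cells then had an edgeR adjusted p of 0.714. Fibroblast-like sums of 169977 to 245321 UMIs limit what could be tested there.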
